A study of Homo sapiens with 46 samples.

Results

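The comparison set input monosome footprints of cells that made the AAQ form of the release factor eRF1 against those of cells that made the wild-type (WT) form. It is about 5 of the 46 libraries in the series, chosen by their labels: 2 AAQ inputs, 2 WT inputs and 1 input of naive cells, which carry no tagged eRF1 and show the untagged level. The test was fitted over these and the 5 monosome libraries pulled down with the tag, 10 in all, to share an estimate of the spread. All came from HEK293 Flp-In T-REx, a human embryonic kidney line built so that a gene placed at a fixed site is switched on by tetracycline. The stable AAQ and WT lines carried eRF1 with a streptavidin-binding peptide tag (SBP) and were induced for 48 h with 0.2 µg/ml tetracycline, per the labels' protocols, which give no tetracycline for naive cells. The AAQ and WT lines thus differed, by label, in the form of eRF1 alone, and the naive cells differed from both in the tag and perhaps in tetracycline. Knockdown control cells of the same line, used only for levels, received control siRNA, first 75 nM for 72 h and then 30 nM for 24 h. The labels do not say whether a line is 1 clone or how the replicates of a line were grown, and the spread that the p-values rest on may be technical only.

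Translation stops when eRF1 enters the ribosome at a stop codon and its GGQ motif, a Gly-Gly-Gln stretch, reaches the peptidyl transferase centre and triggers release of the finished protein. AAQ names a change of both glycines of that motif to alanine, which leaves eRF1 able to bind ribosomes but unable to release the peptide. A monosome footprint is the piece of mRNA that a single ribosome shields from RNase, and the input is the lysate before any pulldown of the tag, so the inputs do not depend on binding to the tag. Only footprints were used for the tagged lines, and more mRNA of a transcript and more ribosomes on each mRNA cannot be told apart in them.

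The 4 tagged inputs held 879113 to 1160281 counts and the naive input 1079441, over transcripts that each stand for a group of isoforms sharing reads. Levels are counts per 1000000 of these counts in a library (CPM). Shares and column sums below use the same totals, which leave out isoforms that were joined to another. Fold changes are log2 values of AAQ minus WT from edgeR's quasi-likelihood test with TMM scaling, which removes a shift shared by most transcripts. The tables used here do not pair Ensembl transcript IDs with gene names, so the transcript of eRF1 itself was not identified, the cell line was not checked against marker genes, and transcripts are described by coding length, level and, for 4 of them, ID.

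Coding sequences of up to 150 codons took a larger part of these footprint counts in AAQ cells, and long ones a smaller part. The share was 21.85% and 21.99% in the AAQ inputs, against 20.53% and 19.80% in the WT inputs and 19.49% in the naive input (95% Wilson interval 19.42 to 19.57, counting error only). The mean was 21.9% ± 0.097 in AAQ and 20.2% ± 0.52 in WT (SD, n = 2 each), a difference of 1.75 percentage points, and the AAQ and WT libraries did not overlap. The exact two-sided permutation test gave p = 0.333, the smallest that 2 libraries against 2 allow.

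Most of this difference lay in 1 band of lengths. Coding sequences of 101 to 150 codons held 14.41% and 14.51% of counts in AAQ, 13.34% and 12.67% in WT and 12.65% in naive cells, a difference of 1.45 percentage points between AAQ and WT. Those of 51 to 100 codons differed by 0.293 points, at 6.13% and 6.21% in AAQ against 5.91% and 5.85% in WT. The shortest class, of up to 50 codons, held 1.31% and 1.27% in AAQ and 1.28% and 1.27% in WT, so these libraries overlapped. Coding sequences of 151 to 300 codons were still higher in both AAQ inputs, by 0.352 points. From 301 codons on the order turned. The class of 601 to 1200 codons held 18.05% and 18.07% in AAQ, 18.63% and 19.13% in WT and 19.45% in naive cells. That of over 1200 codons held 7.87% and 7.67% in AAQ, 8.16% and 8.54% in WT and 8.82% in naive cells. Among the 3 kinds of cell, AAQ and naive libraries lay at the ends, with WT between them, in each class from 51 to 300 codons and in both classes over 600 codons. At 101 to 150 codons the naive input and the lower WT library were nearly equal. At 301 to 600 codons the naive input, at 28.55%, lay between AAQ (27.92% and 28.0%) and WT (28.7% and 28.64%).

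**Figure D1:**
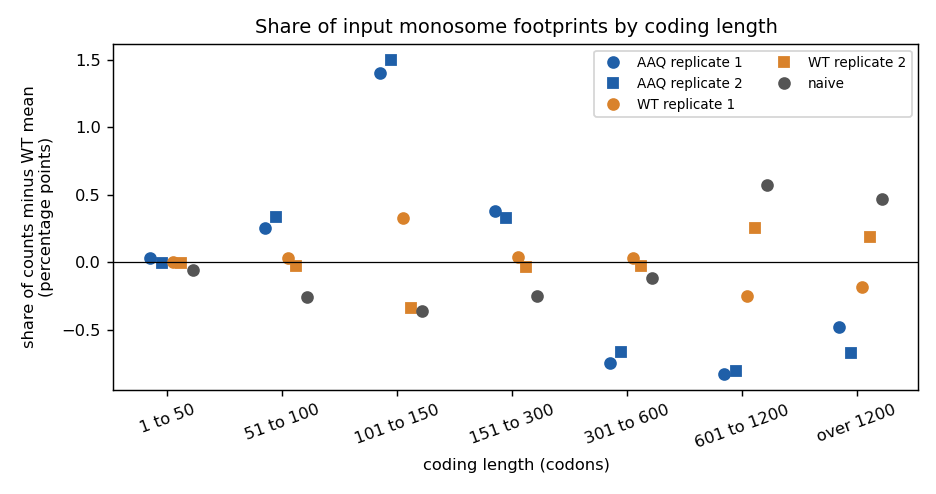
Share of each input library's counts in 7 classes of coding length (x axis, codons), as the difference from the WT mean of that class in percentage points (y axis), 1 point per library. The AAQ points lie about 1.45 points above the WT mean at 101 to 150 codons and below 0 in the 3 classes from 301 codons on.

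Test by test, 468 of 17437 transcripts were higher in AAQ inputs (2.68%) and 179 were lower (1.03%), at an edgeR adjusted p under 0.05, which is 3.71% in all. Among the calls, the falls were larger in size than the rises. The falls had a median level of 63.0 CPM in the naive input, against 185 CPM for the rises, and at lower counts only larger differences pass. The median log2 fold change of the rises was 0.57 (quartiles 0.42 and 0.78), a 1.48-fold difference, and 58 of the 468 were over 2-fold. The falls had a median of -0.84 (quartiles -1.22 and -0.65), and 72 of the 179 were over 2-fold. Both AAQ libraries lay above both WT libraries for 467 of the 468 rises and below them for all 179 falls. That order alone is common, since 21.1% of all transcripts tested had both AAQ libraries above both WT libraries and 21.9% had both below. The 468 rises lay in 325 stretches of the file separated by more than 40 lines and the 179 falls in 136, so some may still be forms of 1 gene. Fitted on the 5 inputs alone, 383 were higher and 144 lower.

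The split of rises and falls depends on the scaling. Scaled by plain column sums, 265 transcripts were higher and 370 lower, so rises made up 41.7% of calls in place of 72.3%. With that scaling the median fold change fell by 0.108 on the log2 scale. The median coding length was then 144 codons for the rises and 452.5 for the falls. All 265 of those rises were among the 468, and all 179 falls were among the 370. By column sums, 143 of the 4149 transcripts of up to 150 codons were higher and 53 lower, and of the 1162 with over 1200 codons 0 were higher and 46 lower. The counts also rest on single libraries. Without AAQ replicate 2, 260 were higher and 65 lower, and without WT replicate 2, 255 were higher and 94 lower. Without AAQ replicate 1, 324 were higher and 111 lower.

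The transcripts that rose had short coding sequences. Their median was 171 codons, against 307 for all tested and 422 for those that fell. Of the rises, 208 (44.4%) had up to 150 codons and 54 had over 600, and of the falls 30 (16.8%) and 61. All tested transcripts held 23.8% with up to 150 codons. By class, 16 of 446 with up to 50 codons rose against 6 that fell, 79 of 1645 with 51 to 100 codons rose and 12 fell, and 113 of 2058 with 101 to 150 codons rose and 12 fell. At 151 to 300 codons 128 of 4453 rose and 39 fell, and at 301 to 600 codons 78 of 4590 rose and 49 fell. Rises and falls were nearly equal in number at 601 to 1200 codons, with 43 and 39 of 3083, and falls outnumbered rises over 1200 codons, with 22 and 11 of 1162. Scaled by column sums, rises and falls numbered 79 and 26 at 101 to 150 codons, 73 and 74 at 151 to 300, 34 and 100 at 301 to 600, and 15 and 97 at 601 to 1200.

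Medians over called and uncalled transcripts ran the same way. Over the 10087 transcripts whose log2 CPM, averaged by edgeR over the 10 fitted libraries, was 4 or more, the median log2 fold change fell from 0.24 at up to 50 codons to 0.15 at 51 to 100, 0.12 at 101 to 150 and 0.06 at 151 to 300 codons. It was -0.04 at 601 to 1200 codons and -0.03 above that. Over all 17437 transcripts the first 4 of these medians were smaller, at 0.092, 0.061, 0.038 and 0.0092. Each AAQ library was set against each WT library, and in all 4 pairs the median lay between 0.09 and 0.15 at 101 to 150 codons. Within that class WT replicate 2 differed from replicate 1 by -0.06 and AAQ replicate 2 from replicate 1 by 0.01. Above 1200 codons the 4 pairs ran from -0.06 to 0.02, so the medians there did not stand apart from the differences between replicates, which were 0.04 in WT and -0.03 in AAQ. By column sums the medians of the first 3 classes were 0.13, 0.044 and 0.015, and those from 151 codons on were all below 0. Across these transcripts, which share their libraries, fold change and coding length had a Spearman correlation of -0.18, against 0.09 and -0.02 for the differences between WT and between AAQ replicates.

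The share of transcripts that rose was highest among abundant ones. Level was read from the naive input, which is on neither side of the comparison. Of the 73 transcripts with 1000 CPM or more in naive cells, 41 rose in AAQ and 2 fell, and of the 386 with 300 to 1000 CPM, 128 rose and 6 fell. At 100 to 300 CPM, 137 of 1462 rose and 48 fell, and at 10 to 30 CPM 45 of 6987 rose and 44 fell. Deeper counts make small differences easier to detect, but the median log2 fold change also climbed with level, from -0.10 under 10 CPM to 0.06 at 100 to 300 CPM and 0.25 at 1000 CPM or more. In the top class the 4 pairs of libraries ran from 0.22 to 0.30, while the WT replicates differed by -0.07 and the AAQ replicates by -0.01. By column sums the medians of these classes were -0.21, -0.05 and 0.14, and falls outnumbered rises below 300 CPM. Rises and falls then numbered 25 and 89 at 10 to 30 CPM, 66 and 102 at 100 to 300 CPM, 79 and 24 at 300 to 1000 CPM, and 32 and 3 above. The 100 most abundant transcripts of the naive input held 15.63% of its counts (95% Wilson interval 15.56 to 15.70), 15.93% and 15.36% of the WT inputs and 17.80% and 17.69% of the AAQ inputs.

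**Figure D2:**
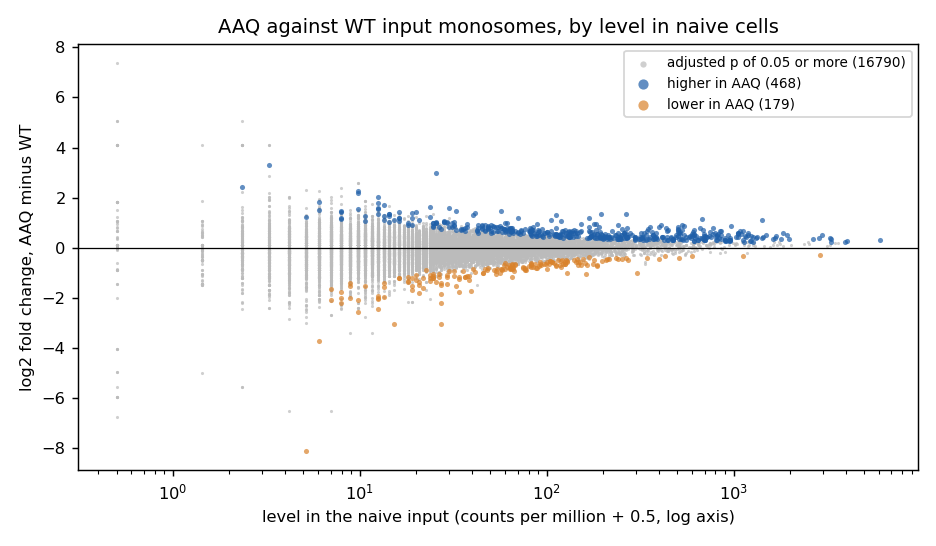
Log2 fold change of AAQ minus WT inputs (y axis) against the level in the naive input (x axis, CPM plus 0.5, log axis) for 17437 transcripts. Transcripts higher in AAQ make up 56.2% of those at 1000 CPM or more and 0.644% of those at 10 to 30 CPM. Most of the 468 higher ones, of the 179 lower ones and of all tested lie under 300 CPM.

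Per length, the share of rises was also highest in the densest class, but these classes also sorted by length. The median coding length was 629 codons in the sparsest class and 137 in the densest. Footprint density, in CPM per 100 codons of the naive input, was 100 or more for 592 transcripts, of which 222 rose (37.5%) and 8 fell. At a density of 30 to 100, 134 of 1751 rose and 44 fell, and under 3, 7 of 3749 rose and 16 fell. By column sums the densest class had 151 rises and 17 falls, but the order turned at 30 to 100, with 65 rises and 96 falls, and under 3 there were 1 and 38. The rises had a median density of 124 in both AAQ inputs, 89.5 and 90.2 in the WT inputs and 86.9 in the naive input. All tested transcripts had medians of 6.46 and 6.43 in AAQ, 7.18 and 7.19 in WT and 7.25 in naive cells. The rises thus lay above the median of all transcripts in every input. The falls had median densities of 6.78 and 6.55 in AAQ, 13.2 and 14.7 in WT and 12.9 in naive cells.

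Length and level each went with the share of rises within broad classes of the other, in which both still vary. Among transcripts with 300 CPM or more in naive cells, 64 of 99 with up to 150 codons rose and 0 fell, 83 of 236 with 151 to 600 codons rose and 5 fell, and 22 of 124 with over 600 codons rose and 3 fell. Their median log2 fold changes were 0.39, 0.19 and 0.10. At 100 to 300 CPM, 61 of 214 short ones rose and 4 fell, against 15 of 504 long ones that rose and 17 that fell, with medians of 0.22 and -0.006. At 30 to 100 CPM the short ones had 46 rises and 13 falls of 619, and the long ones 12 rises and 25 falls of 1601. Under 30 CPM, 37 of 3217 short ones rose and 13 fell. By column sums the short and abundant group was still higher, with 52 rises, 0 falls and a median of 0.28, but the long and abundant group had 6 rises and 17 falls. The direction of abundant long coding sequences therefore flips with the scaling.

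**Figure D3:**
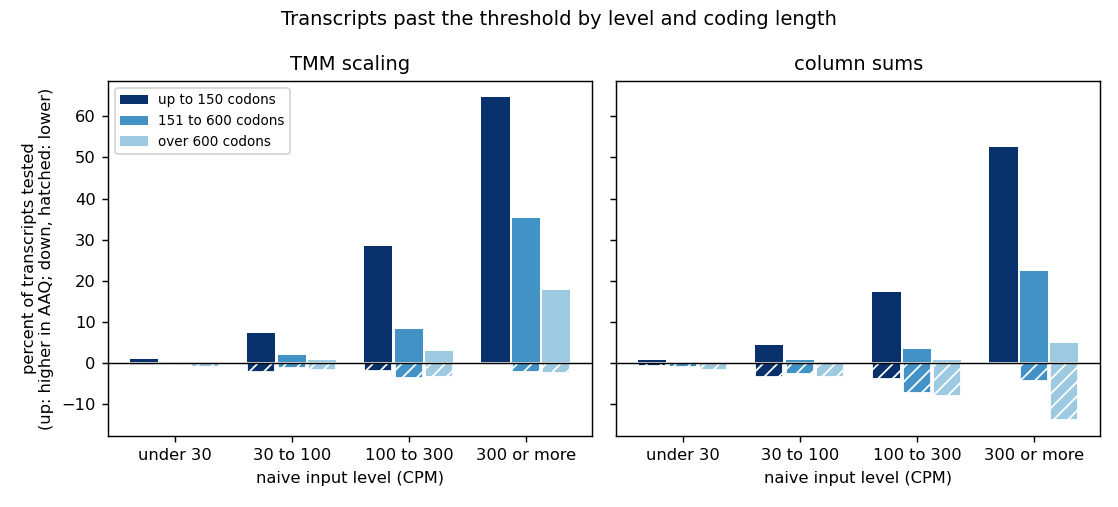
Percent of tested transcripts higher (bars above 0) or lower (hatched bars below 0) in AAQ inputs, by level in the naive input (x axis, CPM) and coding length (shade), with TMM scaling on the left and column sums on the right. Transcripts of up to 150 codons at 300 CPM or more stand highest in both, with 64 and 52 rises of 99.

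Single transcripts show the size of the differences. The transcript with the smallest adjusted p among those of 101 to 150 codons, with 115 codons, stood at 1204 and 1187 CPM in AAQ, 543 and 617 CPM in WT and 677 CPM in naive cells, which is 1.15 on the log2 scale (SE 0.08, edgeR adjusted p = 2.39e-39). The AAQ libraries lay far above the other 3. One of 55 codons stood at 519 and 572 CPM in AAQ, 215 and 240 CPM in WT and 267 CPM in naive cells. A coding sequence of only 26 codons had 159.9 and 143 CPM in AAQ, 54.6 and 62.9 CPM in WT and 56.5 CPM in naive cells. Long ones could rise too. A coding sequence of 647 codons stood at 1855 and 1800.0 CPM in AAQ, 1148 and 994.6 CPM in WT and 974.6 CPM in naive cells (log2 fold change 0.88, SE 0.08, edgeR adjusted p = 4.54e-27). The most abundant rise, with 686 codons, had 6218 and 6782 CPM in AAQ, 5683 and 5612 CPM in WT and 6095 CPM in naive cells, so the naive level lay close to the lower AAQ library.

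Among the falls, the most abundant had 382 codons and stood at 2201 and 2136 CPM in AAQ, 3051 and 2691 CPM in WT and 2914 CPM in naive cells (log2 fold change -0.30, SE 0.07, edgeR adjusted p = 0.00242). A coding sequence of 521 codons fell from 257 and 282 CPM in WT to 129 and 122 CPM in AAQ, with 306 CPM in naive cells. The naive level lay within the WT values for the first and above them for the second. A very long coding sequence, of 5796 codons, had 4.85 and 6.81 CPM in AAQ, 63.7 and 44.0 CPM in WT and 26.9 CPM in naive cells, which is -3.06 on the log2 scale (SE 0.35, edgeR adjusted p = 1.2e-15). Its naive level lay between the groups, a place that choice by the smallest adjusted p favours. Its log2 CPM averaged over the 10 fitted libraries was 3.96, just under the limit of 4 for transcripts given by ID.

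The 4 transcripts given by ID are the 2 rises and 2 falls of largest fold change among those with a log2 CPM, averaged over the 10 fitted libraries, of 4 or more and groups that did not overlap. ENST00000326669.6 (96 codons) had 42.7 and 65.2 CPM in AAQ, 10.2 and 5.17 CPM in WT and 25.01 CPM in naive cells. The WT values thus lay below the untagged level and the AAQ values above it. Choice by the largest difference between AAQ and WT favours a naive level between the groups. For these 4 transcripts that place is therefore not a separate result. Its log2 fold change was 2.98 (SE 0.33, edgeR adjusted p = 1.1e-16), with 44 and 67 counts in AAQ and 9 and 6 in WT. In the pulldowns of the tag it had 66.8 and 80.1 CPM in AAQ, 18.5 and 16.4 CPM in WT and 24.6 CPM in naive cells. It had 0 counts in all 10 disome libraries of this arm, and 1 and 3 counts in the RNA-seq of control siRNA cells, where control monosomes held 15.7 and 14.6 CPM.

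ENST00000424496.2 (65 codons) had 22.3 and 15.6 CPM in AAQ, 6.83 and 5.17 CPM in WT and 12.04 CPM in naive cells, which is 1.79 on the log2 scale (SE 0.44, edgeR adjusted p = 0.00304). The AAQ values again lay above and the WT values below the naive one. The counts behind them were 23 and 16 against 6 and 6, and both control RNA-seq libraries listed it at 0. Its pulldown levels differed less, with 19.2 and 17.3 CPM in AAQ and 14.99 and 15.3 CPM in WT. Without AAQ replicate 1 or WT replicate 2 the edgeR adjusted p was 0.135 or 0.14, in a range from 0.00288 to 0.14 over the 15 settings that gave it a value.

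ENST00000617768.5 (223 codons) fell, with 4.85 and 5.84 CPM in AAQ, 19.3 and 24.99 CPM in WT and 12.97 CPM in naive cells (log2 fold change -1.96, SE 0.43, edgeR adjusted p = 0.000561). The AAQ counts were 5 and 6. Its pulldown levels were also lower, at 11.7 and 12.5 CPM in AAQ and 21.3 and 21.2 CPM in WT, while its disome input levels overlapped, at 34.0 and 22.6 CPM in AAQ and 22.7 and 20.5 CPM in WT, from 5 to 14 counts. In disome pulldowns both AAQ values, 41.4 and 49.1 CPM, lay above both WT values, 19.6 and 36.6 CPM, from 5 to 26 counts. Without WT replicate 2 the edgeR adjusted p was 0.0655, in a range from 0.000266. ENST00000591788.3 (108 codons) had 4.85 and 9.73 CPM in AAQ, 23.9 and 31.9 CPM in WT and 26.9 CPM in naive cells (log2 fold change -1.85, SE 0.38, edgeR adjusted p = 0.000134). Here naive cells lay with WT, and the pulldowns held 14.8 and 14.2 CPM in AAQ against 24.5 and 22.4 CPM in WT. Without AAQ replicate 1 or WT replicate 2 the edgeR adjusted p was 0.0539 or 0.0504, in a range from 5.1e-05.

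**Figure D4:**
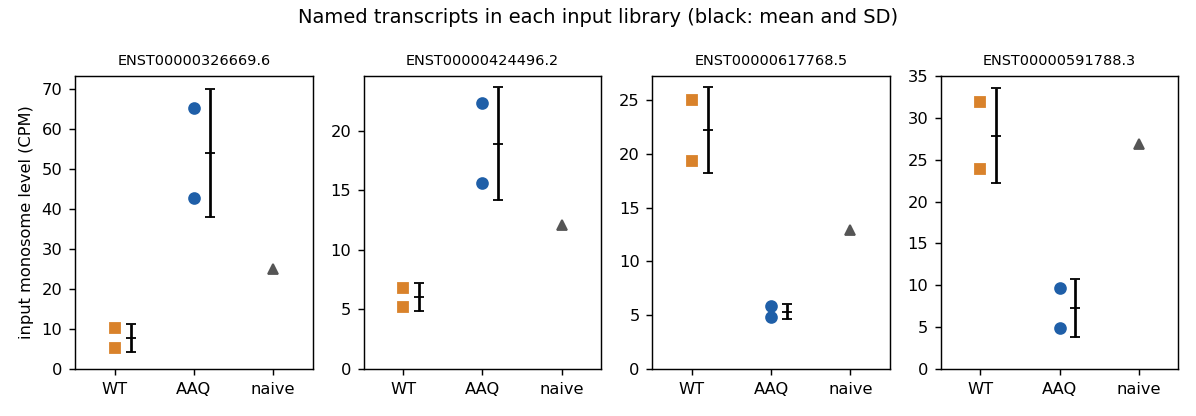
Level (y axis, CPM) of the 4 transcripts given by ID in each of the 5 input libraries, with mean and SD (n = 2) in black for WT and AAQ and a single naive point. Naive cells lie between the groups for 3 of them and with WT for ENST00000591788.3. Choice by the largest difference between AAQ and WT favours a naive level between the groups.

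Over the called transcripts as a whole, naive cells lay between the WT libraries for the rises. For the falls they lay below both WT libraries, but nearer to WT than to AAQ. The 468 rises together took 23.40% and 23.79% of counts in the AAQ inputs, 18.62% and 18% in the WT inputs and 18.26% in the naive input (95% Wilson interval 18.18 to 18.33). The 179 falls took 1.255% and 1.219% in AAQ, 2.01% and 1.97% in WT and 1.91% in naive cells (1.88 to 1.93). The AAQ and WT values follow from how these transcripts were chosen. The naive input was not in the contrast, but its place relative to WT also depends on that choice. Rises were chosen in part for low WT values and falls for high ones. A library outside the contrast then tends to lie above WT for rises and below WT for falls. The naive level was below both WT libraries for 33.3% of the rises and above both for 36.1%, against 32.3% and 35.1% of all tested. For the falls these shares were 43.6% and 22.9%, so naive levels lay below WT more often than over all tested. That is the side which the choice favours, and whether naive and WT cells differ here was not tested. Over the 10087 transcripts of higher level, the SD of the log2 difference between single libraries was 0.36 for the AAQ pair and 0.36 for the WT pair. It was 0.36 and 0.38 between naive and WT, 0.42 to 0.44 between AAQ and WT, and 0.44 and 0.47 between naive and AAQ.

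The same transcripts were then followed in the other libraries of the arm, which may come from the same lysates. The disome libraries took no part in the test, whereas the monosome pulldowns were in its fit, where they bore on the count filter and the spread. In monosomes pulled down with the tag, the 468 transcripts took 24.17% and 23.63% of counts in AAQ and 19.09% and 18.86% in WT, close to the inputs. In input disomes, the footprints of touching ribosomes, they took 20.40% and 20.08% in AAQ, 13.39% and 12.74% in WT and 13.28% in naive cells (95% Wilson interval 13.20 to 13.35). In disome pulldowns they took 23.21% and 23.55% in AAQ and 13.19% and 13.22% in WT. The gap between AAQ and WT was thus 4.92 percentage points in pulldown monosomes, 7.17 in input disomes and 10.2 in pulldown disomes. Whether these gaps differ from each other was not tested. The 179 falls took less in AAQ in each kind of library, with 1.32% ± 0.03 against 1.87% ± 0.02 in pulldown monosomes and 1.82% ± 0.03 against 2.63% ± 0.04 in input disomes (SD, n = 2 each). In all 3 other kinds of library both AAQ values lay beyond both WT values.

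**Figure D5:**
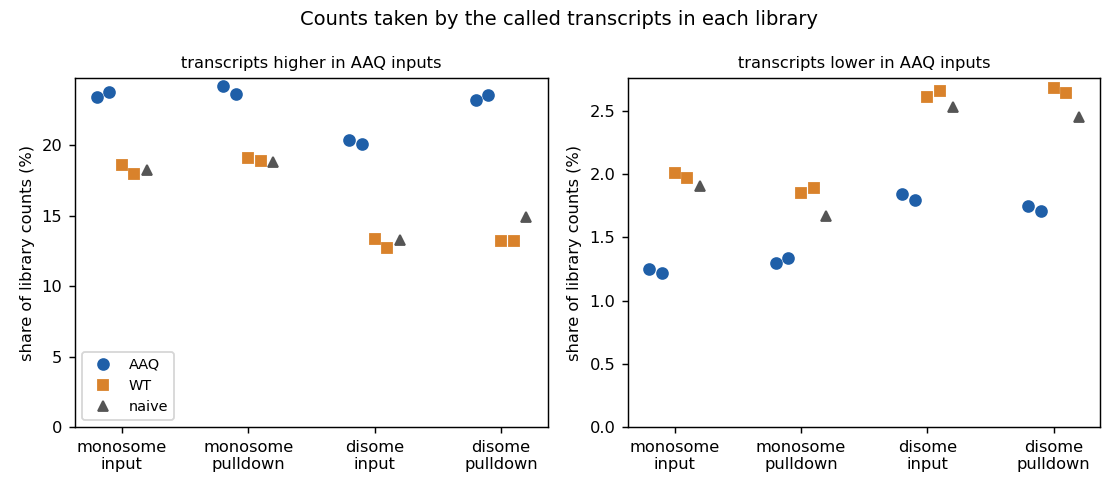
Share of library counts (y axis, %) taken by the 468 transcripts higher (left) and the 179 lower (right) in AAQ inputs, in each library of the arm with tagged eRF1. WT and naive points lie near each other in the inputs, with naive below both WT points for the falls. AAQ points lie apart from WT in all 4 kinds of library, by 10.2 percentage points for the rises in disome pulldowns.

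Coding length showed the same order of AAQ and WT in those libraries. Transcripts of up to 150 codons took 22.6% ± 0.41 of pulldown monosomes in AAQ and 20.85% ± 0.044 in WT, 21.5% ± 0.23 and 18.8% ± 0.06 of input disomes, and 23.2% ± 0.15 and 18.7% ± 0.41 of pulldown disomes (SD, n = 2 each). Those of over 1200 codons took 6.99% ± 0.14 and 7.61% ± 0.04 of pulldown monosomes, and 7.60% ± 0.19 and 8.975% ± 0.098 of input disomes. The AAQ libraries lay outside the WT libraries in each of these pairs. In input disomes the naive library held 19.08% in transcripts of up to 150 codons, above both WT libraries (18.83% and 18.75%). Over 1200 codons it held 8.989%, between the WT libraries (8.906% and 9.045%). In both kinds of pulldown the naive library lay beyond WT, on the side away from AAQ.

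The level of the called transcripts in cells without tagged eRF1 was read from the knockdown control cells, which have both footprints and RNA-seq. The 454 rises of higher level, by the same limit of 4, had a median RNA level of 163 CPM and a median monosome level of 231 CPM, against 40.6 and 38.5 CPM for all 10087 such transcripts and 52.3 and 57.9 CPM for the 146 falls. Of these rises, 450 had both footprints and RNA reads, and so had 145 falls. Their median log2 ratio of monosome to RNA level was 0.42 for the rises, 0.25 for the falls and 0.09 for all. The quartiles overlapped widely, from -0.15 to 0.96 for the rises and from -0.50 to 0.70 for all. Calls are made more readily at high footprint counts, which favours a high ratio among called transcripts of either direction. The ratios were not compared at matched footprint level.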

How the data were processed

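Ribosome footprints were counted by the authors, who deposited whole-number counts per Ensembl transcript with a length, per library and with no header. The length was read as codons of the coding sequence, since 33.1% of values are multiples of 3. STAR 2.7.0a, UMI-tools 1.1.1 and the build hg38 are named in the submitters' processing notes. The counter and the annotation used are not named in the sources used here.

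Isoforms within 40 lines were joined where their differences between replicates, after removal of 2 components, correlated above 0.7 over the groups with 2 replicates. Groups with a single library took no part in that correlation. The isoform with most counts represented each joined set. This step compared the 60189 transcripts with at least 500 counts and left 20753 features of them. Rarer ones were joined where identical, which left 51158 features of 97742 with counts. Of adjacent transcripts 54.1% passed that limit, against 0.0912% of those 1000 lines apart. Reads shared with near-identical copies elsewhere cannot be told apart.

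The test was that of edgeR 4.0.16, run in R 4.3.3 (quasi-likelihood, robust, TMM, minimum count 10, Benjamini-Hochberg), fitted over all 10 monosome libraries of the tagged arm so that groups share an estimate of the spread, with scipy 1.17.1 for exact tests. DESeq2 1.42.0 was an alternative. Replicate inputs differed beyond sampling noise, at a chi-square of 1.24 (AAQ) and 1.33 (WT) per degree of freedom. Transcripts given by ID are the 2 rises and 2 falls with the largest fold change among those past the threshold, an average log2 CPM over those 10 libraries of 4 or more and groups that do not overlap. Other examples are the most abundant rise and fall and those with the smallest adjusted p in a length class. Classes and rules were chosen with earlier results of these data known. Comparisons of gene lists were not run, because IDs were not paired with names. Wilson intervals and depth cover counting error only.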

Additional observations from a re-analysis of the deposited data

How the results depend on the processing

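Beside the 647 calls, 2576 transcripts in all had an unadjusted p under 0.05. Leaving out 1 input library in turn, with the lone sample assumed to vary like the other groups, gave 325 to 538 calls, 255 to 414 of them higher and 65 to 124 lower. DESeq2's test called 385 higher and 62 lower, column sums gave 265 higher and 370 lower, and no count filter gave 366 higher and 111 lower. A looser joining limit for isoforms, 0.5, tested 8392 transcripts and gave 404 calls with 284 higher, and no joining tested 50944 and gave 2109 calls, 1569 higher and 540 lower. DESeq2 size factors, a minimum count of 30, a stricter limit of 0.85, the 5 inputs alone, the fit without naive libraries and, added after seeing the data, the 4 tagged inputs alone kept both counts within 1.5 times. The median coding length of rises was 144 to 215 codons and that of falls 346 to 453 over all settings. Replicate numbers are not said to mark a shared culture. Deviations of same-numbered libraries correlated at 0.02, which cannot decide it, since those deviations hold much counting noise. With the replicate block 478 were higher and 154 lower. The difference in the share of coding sequences of up to 150 codons, 1.75 percentage points, was 1.39 to 2.12 without single libraries and 0.303 for coding sequences of up to 100 codons. With 879113 to 1160281 counts per tagged input, small differences could pass more readily for abundant transcripts. An average log2 CPM of 4 or more was found for 454 of the 468 rises and 146 of the 179 falls, against 10087 of all 17437 tested. The comparison of gene lists was not run.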

Other observations

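The transcripts higher in AAQ inputs held different parts of disome footprints in the 2 arms of the study, both without tagged eRF1. They took 13.28% of disome counts in the naive input, under their 18.26% of monosomes, but 26.5% ± 0.25 of disomes and 20.9% ± 0.19 of monosomes in control siRNA cells (SD, n = 2 each), with 20.5% ± 0.13 of RNA-seq counts there. The transcripts lower in AAQ took 2.53% of disomes and 1.91% of monosomes in naive cells, against 1.39% ± 0.03 and 1.58% ± 0.005 in control siRNA cells. The median log2 ratio of disome to monosome level in the naive inputs was -0.76 for the rises, 0.05 for the falls and -0.42 for all transcripts whose average log2 CPM was 4 or more. The arms differ in treatment and may differ in library preparation, and these cannot be told apart.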
